A study of Mus musculus with 25 samples.

Results

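The Esrrb locus was described as 17 consecutive 10 kb bins of mouse chromosome 12, chr12:86360001-86530000 (build mm10), which span the whole gene. Every pair of bins with at least 1 anchor in that window was taken from each of 9 deposited lists of high-confidence interactions. This gave 437 listings of 182 different pairs, out of 912901 listings in all lists. Within the lists the rule used only position. A pair had to pass the authors' filters on strength and p-value to be listed, so strength did enter which pairs appear. The window was chosen with earlier results of these data known. Bins are named by their distance from the first base of the window: the +140 kb bin is chr12:86500001-86510000. Esrrb (GeneID 26380) runs from 86361117 to 86521628 on the plus strand in RefSeq, 160512 bases, so its start lies in the +0 kb bin.

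The study followed chromatin contacts from fibroblasts to pluripotent cells with 25 libraries in 9 groups: 21 HiChIP libraries, in which ligated contacts are precipitated with an antibody to the factor KLF4 or to H3K27ac, a mark of active promoters and enhancers, and 4 Hi-C libraries without an antibody. The fibroblasts (MEF, at passage 3) came from E13.5 embryos that were heterozygous for an Oct4-GFP reporter, the OKSM reprogramming cassette and rtTA3. Day 3 and day 6 cells were such fibroblasts given doxycycline and ascorbic acid. The series text describes day 3 cells as a bulk population and day 6 cells as sorted for the surface antigen SSEA1. ES cells were the V6.5 line in 2i, a medium with a pair of kinase inhibitors. TKO cells carry the same V6.5 label and were grown in 2i without doxycycline (0 h) or with it for 24 h; the labels do not spell out TKO, and all TKO groups share that genotype. There were 2 MEF and 2 ES libraries for H3K27ac, 3 at each TKO time, 3, 4 and 4 KLF4 libraries at day 3, day 6 and in ES, and 2 Hi-C libraries each for MEF and ES. Nothing in the labels says that libraries came from separate cultures or animals, so p-values measure the spread between these libraries, which may be technical.

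Esrrb encodes an orphan nuclear receptor that binds DNA through an extended half-site and is part of the transcription factor network that keeps mouse ES cells in the naive pluripotent state. It works there alongside Nanog, Klf4, Tfcp2l1 and Sox2, and is also used in the trophoblast lineage. Fibroblasts lack this network, and activation of Esrrb is a known late step of reprogramming. KLF4 is one of the reprogramming factors and binds CACCC-type sites.

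RefSeq lists 2 start sites for the gene, in the +0 kb and the +60 kb bins. The 250 bases before each are shown because the HiChIP lists hold no contact of the first of these bins and few of the other. They lie at chr12:86360867-86361116 and chr12:86421394-86421643, plus strand, GRCm38.p6. Capitals mark the 5-letter CACCC box (GGGTG on the other strand), a motif chosen after the data were seen.
Esrrb start 1: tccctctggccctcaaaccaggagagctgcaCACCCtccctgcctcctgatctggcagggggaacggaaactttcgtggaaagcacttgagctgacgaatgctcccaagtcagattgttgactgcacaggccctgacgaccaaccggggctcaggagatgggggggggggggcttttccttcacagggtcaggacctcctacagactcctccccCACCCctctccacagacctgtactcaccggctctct
Esrrb start 2: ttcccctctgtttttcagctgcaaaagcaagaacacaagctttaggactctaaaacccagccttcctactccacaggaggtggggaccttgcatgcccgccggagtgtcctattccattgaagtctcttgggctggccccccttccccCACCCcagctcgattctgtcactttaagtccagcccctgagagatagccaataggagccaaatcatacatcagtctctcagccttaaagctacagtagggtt
The first stretch held 2 such matches and the second 1, where 52.0% of 32851 RefSeq promoter stretches of the same length held at least 1. The KLF-type motif GGGNGTGG, which can overlap a GGGTG match, was found in neither stretch and in 15.9% of all. The ESRRB motif TCAAGGTCA was found in neither and in 0.387% of all. Both strands were searched. The GC content was 60.8% and 52.0%. Sequence inside the other bins was not analysed here.

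Across the 21 HiChIP libraries the contact totals were 48.7 M to 180.6 M. A value of 1 CPM, which the authors scaled to the contacts of the same chromosome, stood for 2.14 to 8.11 contacts on chromosome 12. For Hi-C only the listed counts show the depth, 5576165 to 10015967 per library. The labelled cell types were checked by the number of listed H3K27ac pairs at marker genes. All 8 pluripotency markers, of which Esrrb itself is 1, had more pairs in ES than in MEF, and 8 of 10 fibroblast markers had more in MEF, with Fn1 higher in ES and Twist1 at 0 in both. In ES KLF4, replicates 1 and 2 and replicates 3 and 4 agreed within sampling noise and were each counted as 1 sample, as were 2 libraries at each TKO time. The 2 ES KLF4 samples stand apart at Esrrb: the summed CPM of its pairs was 149.6 and 149.5 in replicates 1 and 2, and 196.2 and 198.8 in replicates 3 and 4. Over the whole ES KLF4 list the lowest CPM was 3.006 and 3.01 in replicates 1 and 2, and 0 in replicates 3 and 4. The floor of about 3 CPM thus held in replicates 1 and 2 only, so the 2 samples did not enter the list alike.

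In ES cells the strongest H3K27ac contact of chromosome 12 lay within Esrrb, and in MEF no listed pair touched the gene. The ES H3K27ac list held 94 Esrrb pairs, 64 with both anchors inside the window and 30 with 1. The MEF list held 0 among its 2982 pairs of chromosome 12. The 94 pairs were 2.77% of the chromosome's pairs in ES, while the window covers 0.146% of its span. A pair absent from a list may have any value below the authors' filters, so no fold against MEF is given. In these bulk samples, fewer cells with a contact and fewer contacts per cell cannot be told apart. Because no pair was in both lists, no Esrrb pair entered the ES and MEF test, in which 32.0% of 17901 pairs common to both lists were called. The number of listed pairs has no replicate spread, since there is 1 list per group.

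The strongest contacts joined bins in the 3' portion of the gene. The pair of +130 and +140 kb had 107.2 and 106.0 CPM in the 2 ES libraries (mean 106.6 ± 0.880, SD, n = 2), the highest mean of any H3K27ac pair on chromosome 12. The pair of +110 and +130 kb had 99.74 and 103.9 CPM. For +110 and +140 kb the values were 94.46 and 103.8 CPM. The first of these lay above the other two in both libraries, and the other two overlapped. Next came +120 and +130 kb with 76.82 and 87.68 CPM and +110 and +120 kb with 74.59 and 75.57 CPM. The median Esrrb pair had 6.19 CPM, against 5.53 for chromosome 12, and 14 Esrrb pairs were among the 100 strongest of that chromosome.

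The 5 bins from +100 to +140 kb had the highest summed ES H3K27ac strength, a set picked from these values. All 10 pairs among them were listed in ES, in TKO at 0 h and at 24 h, and in ES KLF4. They carried 53.2% and 52.6% of the summed CPM of all Esrrb pairs in the 2 ES libraries. The +140 kb bin had the most partners, 26, followed by 18 at +110 kb and 17 at +130 kb. The +0 kb bin, which holds the first start site, had no listed pair in any of the 7 HiChIP lists. The +60 kb bin, which holds the other start site, had 6 pairs in ES, 6 in TKO at 0 h and 5 at 24 h.

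**Figure D1:**
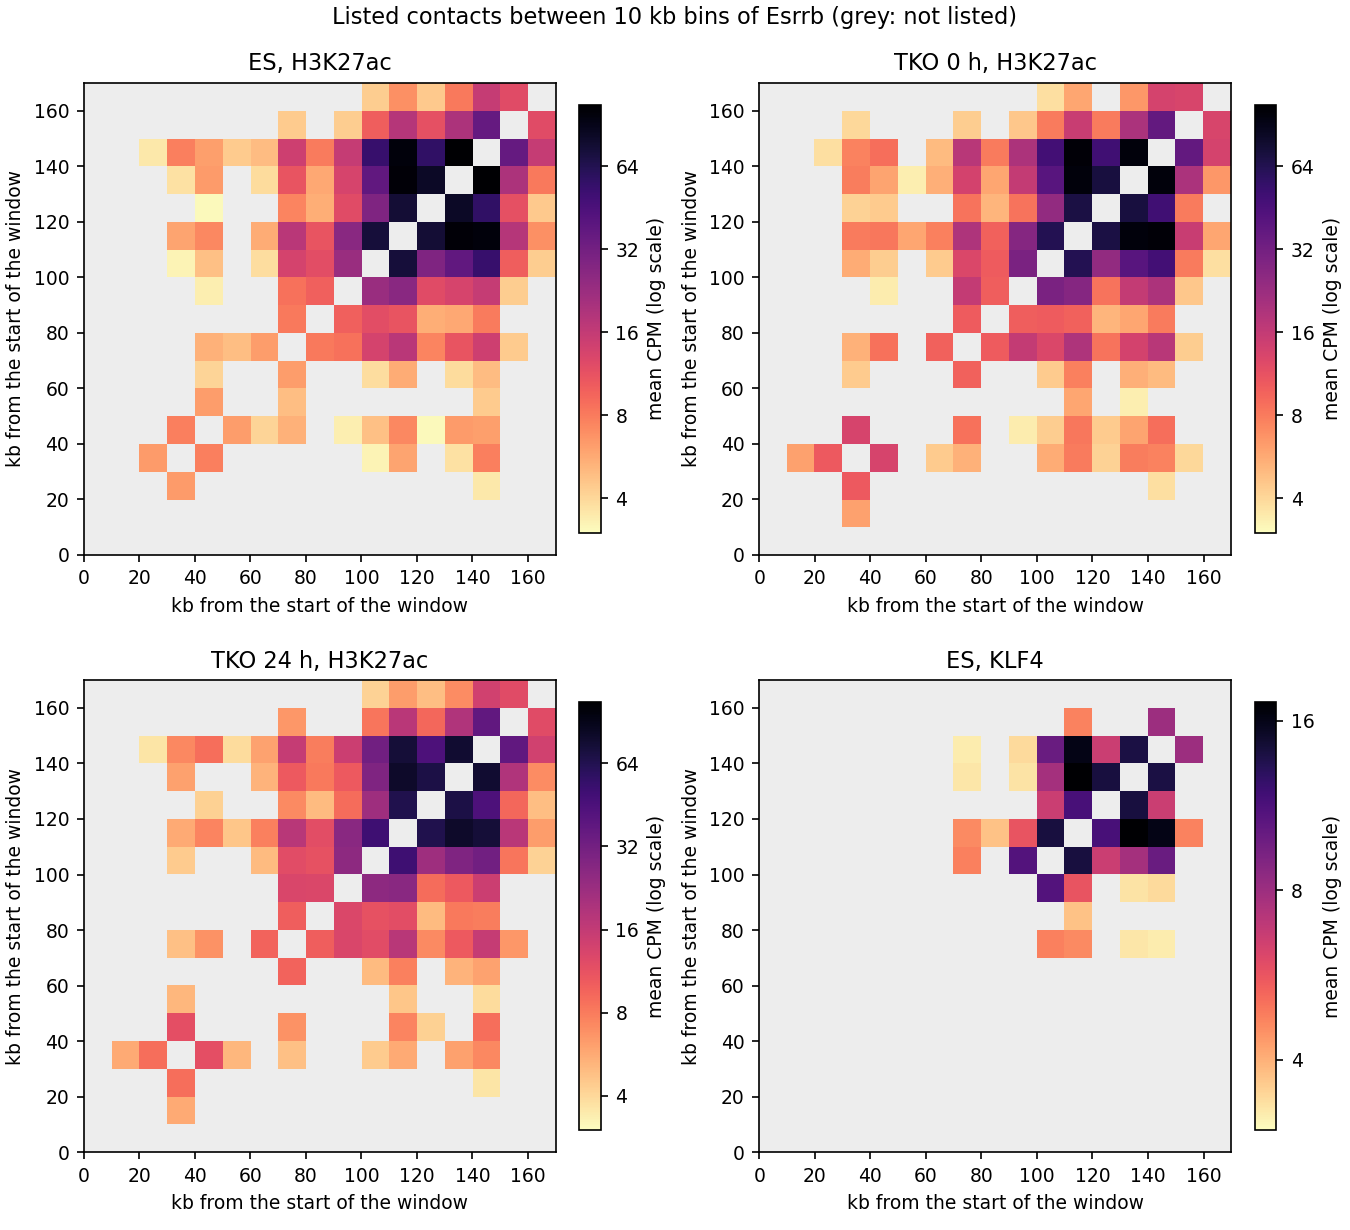
Mean CPM (colour, log scale) of each listed pair of 10 kb bins inside the Esrrb window, in kb from its first base, for H3K27ac in ES, TKO 0 h and TKO 24 h and for KLF4 in ES; grey means not listed, and the KLF4 colour scale is its own. The darkest squares lie between +100 and +150 kb in all 4 maps, and the row of the first bin is empty.

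The authors' annotation of the TKO lists marks H3K27ac peaks per bin. Of the 17 bins, 16 appear in that annotation. A peak at both times was marked in 10: +30, +70 and all 8 bins from +90 to +160 kb. The +80 kb bin had a peak at 24 h only, and no bin had one at 0 h only. The +60 kb bin had no peak at either time, nor did the +40 kb bin, which had 10 partners in ES. The authors' gene columns named none of the 16 bins for a gene.

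The span of the pairs was compared with that of the whole list. In ES H3K27ac, 47 of the 94 Esrrb pairs spanned 50 kb or more, against 26.3% of the whole list. The median span was 45 kb, against 30 kb, and the longest 460 kb, from +110 kb to a bin at 86.93 Mb with 3.334 and 3.579 CPM. The window itself is 170 kb long, so pairs inside it can reach this length. No test was made of this difference, since pairs share bins.

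Of the 30 ES H3K27ac pairs that left the window, 1 went to a bin before it and 29 to bins after it, in 13 bins in all. Of these, 15 reached past 86.76 Mb, where the domain that the authors called in MEF Hi-C ends. Their ES domain runs from 86.12 to 89.48 Mb, 3.36 Mb long, and the MEF domain from 86.12 to 86.76 Mb, 0.64 Mb long. There is 1 set of domains per cell type, with no replicate check. The strongest far partner was chr12:86910001-86920000, a bin with an H3K27ac peak at both TKO times and no RefSeq start. It was joined to +140 kb with 7.501 and 7.296 CPM, to +110 kb with 8.057 and 5.644 CPM and to +130 kb with 4.862 and 5.644 CPM. The bin at 86.88 Mb, which holds the RefSeq start of Irf2bpl, was joined to +140 kb (4.560 ± 0.949 CPM, SD, n = 2) and to +110 kb (3.871 ± 0.171 CPM). The authors' gene columns named Gm26698 at 86.89 Mb, joined to +110 kb with 3.803 ± 0.122 CPM. These far pairs lie close to the 3 CPM floor seen in the lists.

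**Figure D2:**
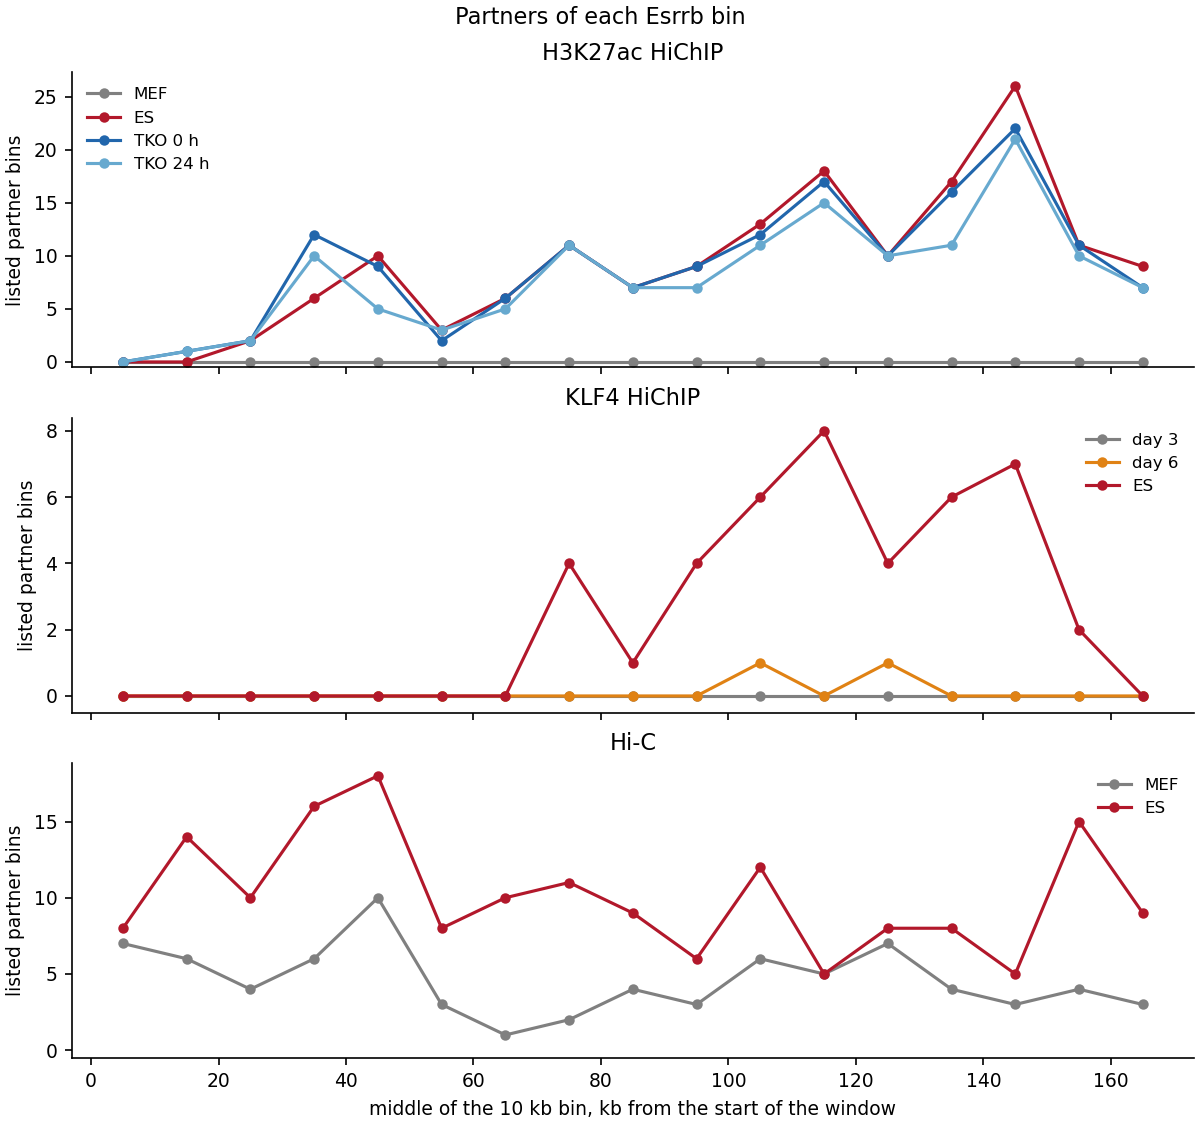
Number of listed partner bins of each of the 17 Esrrb bins, plotted at the middle of the bin in kb from the start of the window, by assay and group. H3K27ac partners peak at +140 kb with 26 in ES, 22 in TKO 0 h and 21 in TKO 24 h, the MEF H3K27ac and day 3 KLF4 lines lie at 0, and Hi-C partners peak at +40 kb.

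Esrrb was nearly absent from the KLF4 lists of the reprogramming cells and present in that of ES cells. The day 3 list held 0 Esrrb pairs among 1264 on chromosome 12, the day 6 list 1 among 180, and the ES list 21 among 1354. The lists differ in length, and 9 of the 21 are left when the ES list is shortened to the length of the day 6 list, 4047 pairs, an alternative chosen after the data were seen. All 21 ES pairs had both anchors inside the window, between +70 and +150 kb, with a median span of 30 kb. The longest, over 70 kb, joined +70 and +140 kb with 3.890, 3.497, 2.676 and 2.653 CPM. The bins from +0 to +60 kb had none. The bin with most KLF4 partners was +110 kb, with 8.

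In ES KLF4 the pair of +110 and +130 kb had 13.22, 17.05, 20.22 and 19.68 CPM in replicates 1 to 4, the second strongest KLF4 pair on chromosome 12. Values for +110 and +140 kb were 9.854, 8.743, 21.70 and 23.66 CPM. Replicates 3 and 4 were the higher pair of libraries in both, and did not overlap replicates 1 and 2. The pair of +120 and +130 kb had 12.19, 10.49, 17.84 and 15.70 CPM, again with replicates 3 and 4 higher. The pair of +130 and +140 kb had 8.298, 9.180, 17.84 and 20.34 CPM with the same split. The pair of +100 and +110 kb had 15.04, 11.80, 12.78 and 15.48 CPM, without it. Among the 100 strongest KLF4 pairs of the chromosome, 8 were Esrrb pairs. The 10 pairs from +100 to +140 kb held 64.6%, 60.8%, 68.6% and 73.5% of the summed KLF4 CPM of Esrrb in replicates 1 to 4.

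All 21 KLF4 pairs were also H3K27ac pairs in ES, 22.3% of the 94 there. The Wilson 95% interval of that 100% runs from 84.5 to 100, for counting error only, and 74.0% of all ES KLF4 pairs were in the H3K27ac list. Across the 21 pairs the log2 CPM of KLF4 and of H3K27ac had a Pearson correlation of 0.93 and a Spearman correlation of 0.92, as a description only, since the pairs share bins, distances and cells. The H3K27ac value was a median of 4.59 times the KLF4 value.

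The only day 6 pair joined +100 and +120 kb. It had 3.270, 4.328, 4.635 and 4.042 CPM at day 6 (mean 4.068 ± 0.585, SD, n = 4) and 7.261, 5.246, 3.567 and 9.065 CPM in ES replicates 1 to 4. The groups overlapped, and ES replicates 3 and 4, which were counted as 1 sample, were the lowest and highest of the ES libraries. All day 6 libraries also agreed within sampling noise (chi-square p of 0.945 or more). They stayed n = 4 because libraries were joined only where others of the group differed. The pair was not called between day 6 and ES in edgeR's quasi-likelihood test (log2 change 0.08, 0 of 1 called, where 3.37% of all pairs were called). Without the TMM factors the log2 change was 0.68 and it was called higher in ES, and without ES replicate 4 it was -0.24 and not called. Since TMM centres the change of all common pairs, whose median log2 CPM ratio was 0.52, the call rests on that choice.

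TKO cells at 0 h had 88 listed Esrrb pairs, beside 94 in ES. With the H3K27ac lists cut to equal length, an alternative chosen after the data were seen, the order turned, with 78 in TKO at 0 h and 73 in ES, so no order is read from these numbers. Of the 88, 66 were inside the window and 13 among the 100 strongest of the chromosome. Among them, 73 were also in the ES list, 83.0% of the 88 and 77.7% of the 94, where the shares over all pairs were 62.8% and 77.6%. The summed CPM of the 73 common pairs was 1238 and 1291 in ES and 1212, 1324 and 1300 in TKO at 0 h. The groups overlapped (exact permutation test, two-sided, p = 0.7, smallest possible 0.1; p = 1.0 and 0.333 with the agreeing libraries counted once). The 21 pairs listed in ES alone had 3.249 to 6.218 CPM, and the 15 in TKO alone 3.219 to 6.099 CPM, all in the weak range.

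The edgeR test called 20 of the 73 common pairs, 3 higher and 17 lower in TKO at 0 h, where 16.5% of all pairs were called, 9.14% higher and 7.39% lower. Without TMM factors 13 were called, 11 higher and 2 lower, so the direction at Esrrb depends on the scaling. In that fit 17204 of all 58574 pairs were called higher and 959 lower. Of the 17 lower calls, 2 were still called without TMM, as were all 3 higher calls. The median log2 change of the 73 was -0.23 with TMM and 0.07 without, beside -0.008 and 0.293 for all pairs. In both scalings Esrrb lay below the median of all pairs. The pair of +120 and +130 kb had 76.82 and 87.68 CPM in ES and 67.01, 78.97 and 67.86 CPM in TKO at 0 h, overlapping groups, with an edgeR log2 change of -0.49 ± 0.07 (SE, adjusted p = 4.88e-07). The pair of +100 and +110 kb had 74.45 and 71.58 CPM in ES and 63.09, 63.87 and 64.20 CPM in TKO at 0 h, without overlap (log2 change -0.47 ± 0.08, edgeR adjusted p = 2.51e-06). Of the 8 called pairs with the lowest adjusted p, all lower, 5 held the +120 kb bin and all lay between +90 and +140 kb, with log2 changes from -0.83 to -0.30. Without TMM, 7 of these 8 lost the call: +120 with +130 kb had a log2 change of -0.19 (edgeR adjusted p = 0.141) and +100 with +110 kb one of -0.17 (edgeR adjusted p = 0.204). The exception was the largest, +90 with +120 kb, at -0.53 without TMM (edgeR adjusted p = 0.0177). It had 11.01 and 13.47 CPM in ES and 9.278, 7.685 and 7.603 CPM in TKO at 0 h. The pair of +30 and +130 kb went the other way, from 3.195 and 4.267 CPM in ES to 7.422 to 9.011 CPM in TKO (log2 change 0.82 ± 0.23, edgeR adjusted p = 0.00735). The other 2 called higher joined +70 with +90 kb and +30 with +40 kb (log2 changes 0.57 and 0.50). The +30 kb bin had 12 partners in TKO at 0 h and 6 in ES.

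After 24 h of doxycycline, edgeR called 3 of the strong Esrrb contacts lower and no other Esrrb pair in the fit reported. DESeq2 called none at Esrrb, and 121 of all 67728 pairs. With so few calls, no difference from the share over all pairs is read. Of the 69 pairs listed at both times, edgeR called 3, all lower at 24 h, where 2.62% of all pairs were called and 2.04% were called lower. Each of the 3 joined the +100 or +110 kb bin with the +130 or +140 kb bin. At an unadjusted edgeR p under 0.05 there were 12, where 9218 of all 67728 pairs were under it. This comparison and that of TKO 0 h with ES share the 0 h libraries. The median log2 change of the 69 was 0.03, beside 0.007 for all 67728 pairs tested. Without TMM factors these medians were -0.07 and -0.098, and 4 Esrrb pairs were called, all lower. In that fit 2825 of all 67728 pairs were called, 2670 of them lower.

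The pair of +110 and +140 kb had 96.08, 99.38 and 116.9 CPM at 0 h and 65.16, 77.09 and 73.51 CPM at 24 h. Every 24 h library was below every 0 h library, and the log2 change was -0.38 ± 0.10 (SE, edgeR adjusted p = 0.0117). Without replicate 3 of 0 h, its highest library, the adjusted p was 0.114. Over all alternatives it ranged from 3.31e-06 to 0.114.
The pair of +100 and +140 kb had 39.17, 56.98 and 58.29 CPM at 0 h and 33.08, 33.77 and 28.40 CPM at 24 h. Its groups did not overlap, replicate 1 of 0 h stood below the other two, and the log2 change was -0.53 ± 0.12 (edgeR adjusted p = 0.000983). Over the alternatives its adjusted p ranged from 3.48e-06 to 0.349, the latter with DESeq2.
The pair of +100 and +130 kb had 39.38 to 42.40 CPM at 0 h and 26.18 to 30.66 CPM at 24 h, again without overlap (log2 change -0.41 ± 0.12, edgeR adjusted p = 0.0322). It lost the call in 5 of the 6 fits that left out 1 library, with adjusted p from 0.0612 to 0.167 in those.
DESeq2 called none of the 69 pairs, with 3 at an unadjusted p under 0.05. Over all 67728 pairs it called 121, with 1731 at an unadjusted p under 0.05.

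**Figure D3:**
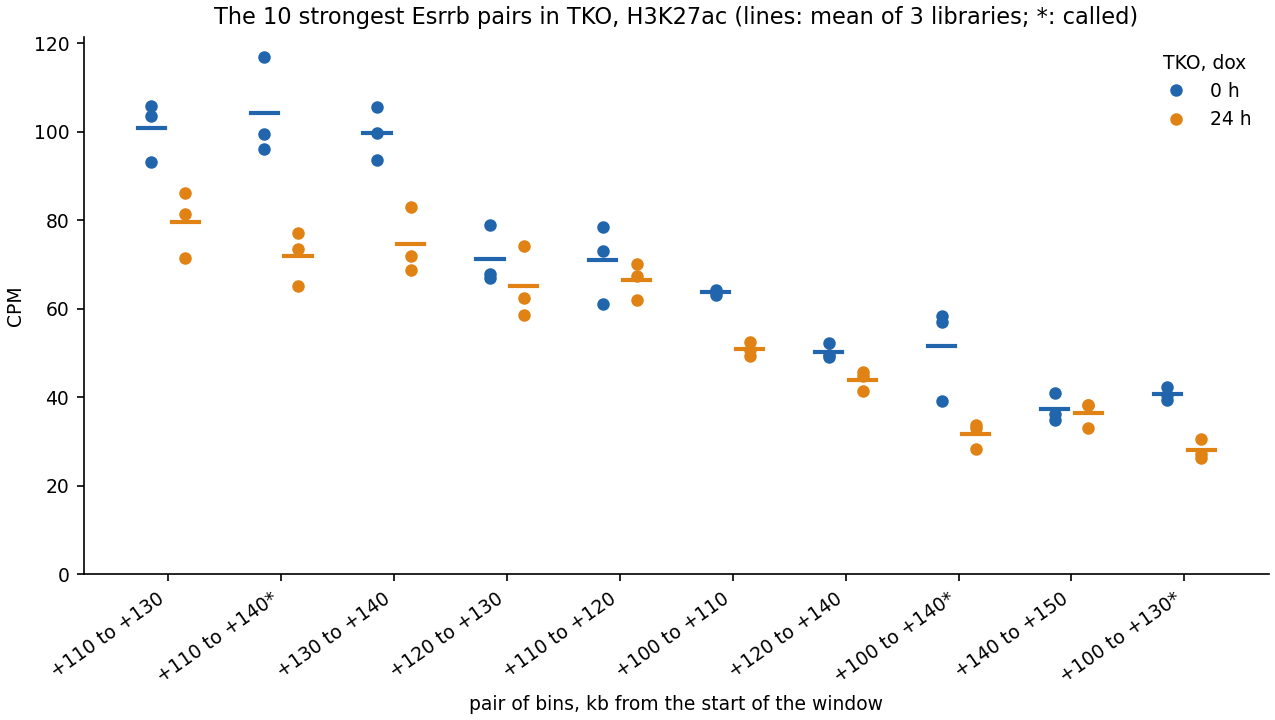
CPM of the 10 strongest Esrrb pairs in each TKO H3K27ac library (points; 3 at 0 h, 3 at 24 h; lines are means of 3 libraries), by the starts of the bins in kb from the start of the window; asterisks mark the 3 pairs called in the edgeR test. The 24 h libraries lie below all 0 h libraries in 7 of the 10 pairs. Among all pairs listed at both times, of any strength, 17.2% did so. All pairs with 20 CPM or more at 0 h had a median log2 CPM ratio of -0.29.

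The other strong pairs differed among themselves. At +110 and +130 kb the values were 93.19, 105.7 and 103.6 CPM at 0 h and 71.45, 81.31 and 86.05 CPM at 24 h. The pair of +130 and +140 kb had 93.60, 105.5 and 99.68 CPM at 0 h and 68.80, 83.09 and 71.84 CPM at 24 h. Neither pair overlapped between times, and neither was called (edgeR adjusted p = 0.342 and 0.149). The pair of +120 and +130 kb had 67.01, 78.97 and 67.86 CPM at 0 h and 58.55, 74.20 and 62.38 CPM at 24 h. Values for +110 and +120 kb were 61.03, 73.14 and 78.56 CPM at 0 h and 70.13, 61.98 and 67.39 CPM at 24 h. These 2 pairs, both with the +120 kb bin, overlapped between times, with log2 changes of 0.02 and 0.03.

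Among the 10 strongest pairs the median log2 change was -0.21 with 7 negative, and among the other 59 it was 0.05. The same order held for the plain CPM ratio, -0.32 and -0.05. All pairs with 20 CPM or more at 0 h had a median log2 CPM ratio of -0.29 (n = 3248), near that of the strong Esrrb pairs. That set was chosen by the 0 h value alone and the 10 Esrrb pairs by the mean of both times. The 2 medians are therefore not like for like, and their difference was not tested. Of the 69 pairs, 19 were lower in every 24 h library than in any 0 h library and 3 were higher, where 17.2% and 3.9% of all pairs did so. The summed CPM of the 69 pairs was 1204, 1302 and 1276 at 0 h and 1050, 1112 and 1094 at 24 h. The groups did not overlap, with a ratio of 0.861 (log2 -0.22, exact permutation test, two-sided, p = 0.1, the smallest that 3 against 3 allows). With the libraries that agree within sampling noise counted once, 2 against 2, the log2 ratio was -0.19 and p was 0.333, the smallest possible. The 10 pairs from +100 to +140 kb held 49.1%, 50.4% and 51.3% of the summed CPM at 0 h and 47.0%, 49.1% and 47.9% at 24 h, so the 2 times met at 49.1%.

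**Figure D4:**
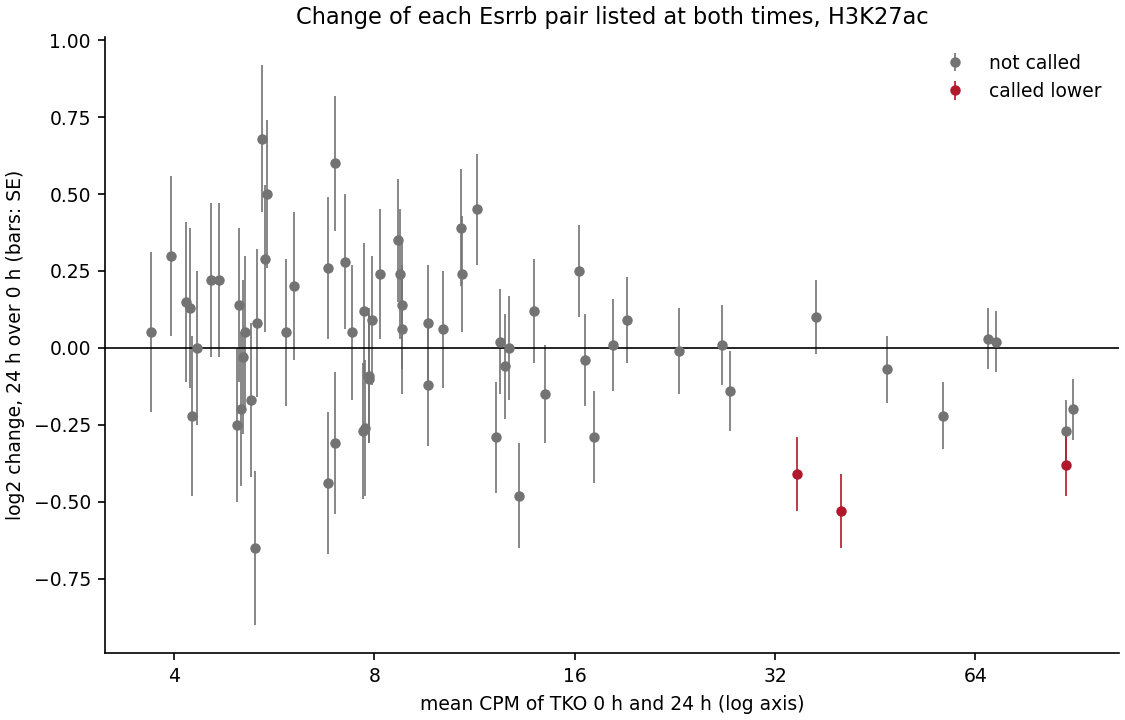
Log2 change from 0 h to 24 h (edgeR with TMM, bars are SE) of the 69 Esrrb pairs listed at both times against their mean CPM (log axis). The 3 pairs called lower, in red, lie above 32 CPM, and the weaker pairs scatter on both sides of 0.

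The Esrrb pairs listed numbered 88 at 0 h and 75 at 24 h, while the whole list went from 93248 to 84256 pairs. In lists of equal length the numbers were 78 and 75. The 69 common pairs were 78.4% of the 88 and 92.0% of the 75, where the shares over all pairs were 72.6% and 80.4%. The 19 pairs listed at 0 h only had 3.219 to 6.609 CPM (median 4.175), and the 6 at 24 h only 3.521 to 5.130 CPM. Many lay near the floor of about 3 CPM, but the strongest, +160 kb with 86.54 Mb, had 6.095 CPM or more in every 0 h library. The value of a pair in the list that lacks it is not known, so presence in 1 list is not a measured change. By bin, +130 kb went from 16 to 11 partners and +40 kb from 9 to 5, while +70 kb kept 11 and +120 kb kept 10.

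Many far contacts lay close to the list threshold, and unlisted pairs have no value. Numbers of far pairs therefore describe the lists and not a measured change. In ES, the bin at 86.91 Mb stood further above the threshold, with means of 7.398 CPM to +140 kb and 6.85 CPM to +110 kb. Among the H3K27ac lists of pluripotent cells, pairs that left the window numbered 30 in ES, 22 in TKO at 0 h and 14 at 24 h, and those past the end of the MEF domain 15, 6 and 1. Over the whole lists, the share of pairs of 50 kb or more was 26.3%, 25.2% and 21.5%. The bin at 86.91 Mb was joined to +140 kb with 5.154, 8.215 and 7.884 CPM at 0 h and 4.631, 3.555 and 4.177 CPM at 24 h. All 24 h libraries were lower, but the change was not called (log2 -0.65 ± 0.25, edgeR adjusted p = 0.184). Its pairs with +110 kb (4.948, 7.420 and 5.069 CPM) and +130 kb (4.123, 4.770 and 3.097 CPM) were listed at 0 h and not at 24 h. The longest pair of all joined +140 kb to 87.31 Mb, inside Sptlc2, over 810 kb at 0 h, with 3.299, 4.240 and 5.069 CPM. On the other side, the bin at 86.32 Mb was joined to +140 kb at both TKO times, with 4.794 ± 0.365 CPM at 0 h and 5.222 ± 2.04 CPM at 24 h (SD, n = 2).

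Hi-C showed contacts at Esrrb in both cell types, spread along the gene. The MEF list held 49 Esrrb pairs and the ES list 109, 0.473% and 0.668% of the pairs of chromosome 12. All 17 bins had pairs in both, and the bin with most partners was +40 kb, with 10 in MEF and 18 in ES. The first bin had 7 Hi-C pairs in MEF and 8 in ES. The strongest of these joined it to +10 kb, with a signal of 53.16 and 68.02 in MEF and 44.94 and 43.40 in ES, in the authors' Hi-C unit, whose scale is not that of HiChIP CPM. The MEF libraries were both above the ES libraries, but the pair was not called (log2 change -0.62 ± 0.24, edgeR adjusted p = 0.619).

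The strongest Hi-C pairs joined neighbouring bins, 5 of the 6 named in the 5' portion and 1 in the 3' portion. In MEF they were +10 with +20 kb (62.95 and 65.30), +30 with +40 kb (72.75 and 53.06) and +0 with +10 kb. In ES they were +20 with +30 kb (66.76 and 62.93), +30 with +40 kb (62.91 and 65.10) and +120 with +130 kb (50.07 and 73.78). No Esrrb Hi-C pair was among the 100 strongest of the chromosome. The longest joined +40 kb to a bin at 86.13 Mb in MEF, over 270 kb (27.98 and 17.69), and +10 kb to a bin at 86.61 Mb in ES, over 240 kb (17.98 and 17.36). None went past the end of the MEF domain in either cell type.

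**Figure D5:**
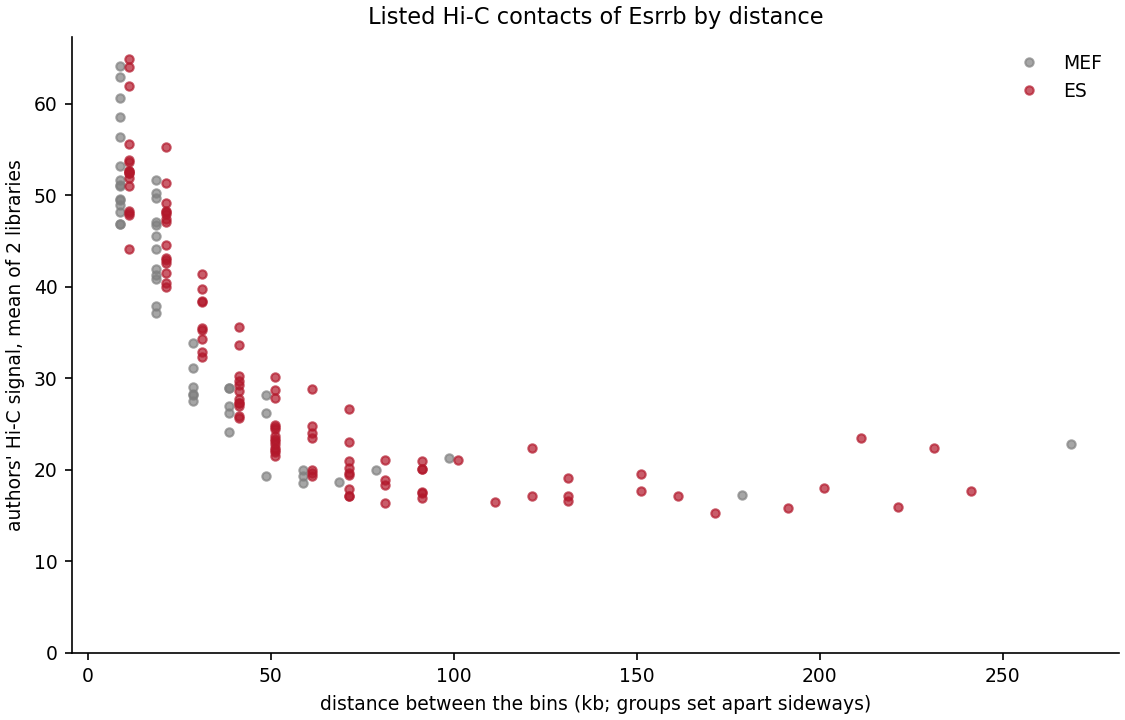
The authors' Hi-C signal (mean of 2 libraries) of every listed Esrrb pair against the distance between its bins in kb, for 49 pairs in MEF and 109 in ES; points of the 2 groups are set apart sideways. Signal falls with distance in both, and the additional ES pairs are mostly weak pairs at 50 kb or more.

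Of the 109 ES pairs, 57 spanned 50 kb or more (52.3%), against 11 of 49 in MEF (22.4%); the shares of the whole lists were 48.0% and 37.0%. The ES list is longer, 318622 pairs against 228083. With the ES list shortened to the same length by signal, an alternative chosen after the data were seen, Esrrb had 69 pairs in ES, 17 of them at 50 kb or more (24.6%). The number under 50 kb stayed at 52 in ES, against 38 in MEF.

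The 33 pairs in both Hi-C lists were 67.3% of the MEF pairs and 30.3% of the ES pairs, where the shares over all pairs were 55.9% and 40%. edgeR called 0 of them, where 0.0322% of all pairs were called, with 1 at an unadjusted p under 0.05. DESeq2 called 0, with 0 at an unadjusted p under 0.05. Over all pairs, 7544 of 124204 had an unadjusted edgeR p under 0.05, and DESeq2 called 0 of 127440. The median log2 change of the 33 was -0.13 by edgeR and 0.04 in the authors' signal, so no direction is given. The summed signal of the 33 pairs was 1421 and 1483 in MEF and 1423 and 1564 in ES, overlapping groups (exact permutation test, two-sided, p = 0.667, smallest possible 0.333). Of the 10 pairs from +100 to +140 kb, 8 were listed in MEF and 8 in ES. Their summed signal was 335.8 and 406.8 in MEF and 350.5 and 380.8 in ES, overlapping groups. This was 18.5% and 21.0% of the summed Esrrb signal in MEF and 10.6% and 10.9% in ES, whose list holds more pairs.

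Set against HiChIP, 43.6% of the 94 ES H3K27ac pairs of Esrrb were in the ES Hi-C list, where 51.2% of all ES H3K27ac pairs were. In turn, 37.6% of the 109 Hi-C pairs were in the H3K27ac list, where 12.1% of all were. Of the 21 ES KLF4 pairs, 71.4% were in ES Hi-C (62.8% over all pairs) and 47.6% in MEF Hi-C (49.4% over all pairs). These were 13.8% of the 109 ES Hi-C pairs and 20.4% of the 49 in MEF, against 4.85% and 5.32% over all. Of the 49 MEF Hi-C pairs, 51.0% were H3K27ac pairs in ES, against 12% over all. They were 26.6% of the 94 ES H3K27ac pairs, against 36.2% over all. The pair of +110 and +140 kb, among the 3 strongest in H3K27ac, was in neither Hi-C list.

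Other genes of the naive network were counted over their own gene bodies. Of 20 genes, 19 had more H3K27ac pairs in ES than in MEF, and 13 of the 20 had none in MEF. Stat3, the signal transducer of LIF, was the exception with 20 pairs in MEF and 4 in ES. Nanog, a homeobox factor that sustains self-renewal, had 2 pairs in MEF and 35 in ES, Mycn, a Myc-family factor, 0 and 40, and Tfcp2l1, a naive-state factor, 0 and 28. Esrrb had the most pairs of the list in ES H3K27ac and in ES KLF4, but it also had the most bins, 17 against 1 to 13. In TKO at 24 h, 355 pairs of these genes were tested, 0 were called higher and 23 lower, in 11 genes, with Tet2, a DNA demethylating enzyme, at 7 and Nanog at 3, where 0.576% of all pairs were called higher and 2.04% lower.

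Among 13 nuclear receptors and their coregulators, 9 had more H3K27ac pairs in ES than in MEF, 2 fewer and 2 equal. Esrra, a broadly expressed paralog of Esrrb, had 7 in MEF and 17 in ES, and Esrrg, the other paralog, 0 in all HiChIP lists and 30 and 4 in MEF and ES Hi-C. Nr5a2, a receptor that can replace Oct4 in reprogramming, had 0 in MEF and 12 in ES. Ncoa3, a coactivator that partners ESRRB, had 8 and 31. In TKO, 202 pairs of these genes were tested, 0 were higher and 6 lower, in Ncor1 (4) and Ncoa3 (2), close to the 2.04% of all pairs called lower. The neural marker Sox1 had 0 in MEF and 3 in ES, Pax6 0 and 1, and Nes 8 and 13. The trophoblast markers Cdx2 and Elf5 had 0 H3K27ac pairs in every group, and Tfap2c and Eomes had 6 and 2 in ES and 0 in MEF.

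The genes whose numbers of listed pairs over the 9 lists were most like those of Esrrb were Hipk4 (Pearson correlation of log2 of the number plus 1, 0.992), Bclaf3 (0.991), Nlrc3 (0.989), Spata25 (0.989) and Zswim1 (0.989), among 1609 genes with 10 or more ES H3K27ac pairs. Those genes were counted at the bins that the authors name for them and Esrrb over its window. Each had 0 pairs in MEF H3K27ac, day 3 KLF4 and day 6 KLF4, and 10 to 13 in ES H3K27ac. The genes were chosen by these same numbers, so this likeness follows from the choice.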

How the data were processed

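The 9 interaction lists and 2 domain lists were used as deposited. Per the file headers, the authors give each pair of 10 kb bins a raw count per library, a CPM value, 1 p-value and 1 FDR. The deposited HiChIP CPM is the count over the contacts of the same chromosome, since their quotient is 1 whole number per chromosome. The column of that name in the 2 Hi-C lists is the authors' signal on another scale and is called so here. The authors' distance ratio was not used. The submitters' processing notes name Bowtie2 2.2.3 and mm10; the roles of tools and the test behind the p-value are not given in the sources used here. A HiChIP library contributed 48.7 M to 180.6 M contacts. In the files every listed p-value is under 0.1 (0.01 in Hi-C), and CPM mostly above 3. The libraries with lower values were KLF4 replicate 3 of day 3 and replicates 3 and 4 of day 6 and of ES. Their lowest CPM was 0 to 0.567.

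Libraries of a group that agreed within sampling noise (chi-square p of 0.05 or more, where another pair of libraries of the group differed) were summed: ES KLF4 replicates 1 and 2 and replicates 3 and 4, TKO 0 h replicates 2 and 3, TKO 24 h replicates 1 and 3. Means and SD are over these samples; exact permutation tests used libraries apart, and again with these samples. Pairs in both lists of a comparison were fitted over the whole table with edgeR 4.0.16 (R 4.3.3): quasi-likelihood test, filterByExpr, TMM on contact totals (count sums in Hi-C), Benjamini-Hochberg over all pairs, called under 0.05. The script was tested on simulated data. DESeq2 1.42.0, contact totals without TMM, no filter, separate libraries, a replicate block and leaving out each library were alternatives, as were a window wider by 1 bin, stricter list thresholds and a 1-bin tolerance in overlaps. Pairing by replicate number was checked.

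Pairs were named by rule: those of the first bin, the 5 strongest of each HiChIP and 3 strongest of each Hi-C list, up to 8 called pairs a comparison, the longest pair and the bin with most partners; other named pairs were chosen after their values were seen. The window, gene lists and tests were chosen with earlier results of these data known. Promoter sequences and gene positions are from RefSeq, GRCm38.p6, in which 94.5% of 9383 bins that the authors name for a gene hold that gene's start. Tables were handled with Python 3.11.15, pandas 2.3.3 and scipy 1.17.1. Wilson intervals have a level of 95% and, like all counting limits here, cover counting error only, since reads were amplified by PCR.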

Additional observations from a re-analysis of the deposited data

How the results depend on the processing

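Among the called pairs and the summed contacts, 1 value changed sign under an alternative: +110 with +140 kb between TKO 0 h and ES, -0.22 as reported and called, was 0.08 and not called without TMM. The number of Esrrb pairs called in TKO at 24 h, 3 in the fit reported, was 0 with DESeq2, 5 with a replicate block and 1 to 3 without each replicate in turn, the 1 without replicate 3 of 0 h. Between TKO 0 h and ES, 20 as reported, it was 5 with DESeq2, 13 on contact totals without TMM (11 higher, 2 lower) and 11 to 17 without each replicate in turn (11 without TKO 0 h replicate 1, 13 without its replicate 2 and 13 without ES replicate 1). Between day 6 and ES KLF4 it was 1 on contact totals without TMM, against 0. Over all pairs, DESeq2 called 121 of 67728 in TKO at 24 h and 1578 of 58574 between TKO 0 h and ES. Contact totals without TMM gave 18163 of 58574 between TKO 0 h and ES, and 1159 of 2076 between day 6 and ES KLF4. The replicate block gave 2024 of 67381 in TKO at 24 h. For Esrrb, the block changed the number of calls by more than 1.5 times in TKO at 24 h only. The deviations of same-numbered libraries had correlations from -0.014 to 0.038. Most pairs have low counts, where sampling noise can hide a shared batch, so this check cannot exclude such a batch. No label says that the numbers mark pairs, so they were not taken as pairs. The summed contacts of TKO gave a log2 ratio of -0.25 to -0.19 without each replicate in turn, and of -0.19 with agreeing libraries counted once, an alternative added after the data were seen.

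With strength at least 2 times the lowest of the chromosome, the listed pairs were 48 in ES H3K27ac, 49 in TKO 0 h, 47 in TKO 24 h, 0 at day 6, 28 in MEF Hi-C and 42 in ES Hi-C. With a deposited FDR under 0.1 they were 27 of 94, 27 of 88 and 21 of 75 in the H3K27ac lists of ES, TKO 0 h and TKO 24 h. The shares over all pairs were 5.9%, 7.74% and 5.83%. In KLF4 they were 0 of 1 at day 6 and 2 of 21 in ES, where 0.173% and 0.199% of all pairs passed. For Hi-C they were 1 of 49 in MEF and 2 of 109 in ES, below the 12.6% and 8.8% of all pairs. In lists of equal length, added after the data were seen, they were 73 in ES H3K27ac, 78 in TKO 0 h, 75 in TKO 24 h, 9 in ES KLF4 and 69 in ES Hi-C. With a tolerance of 1 bin per anchor, the shared percent was 94.3 of TKO 0 h pairs in TKO 24 h, 93.6 of ES pairs in TKO 0 h, 100 of ES KLF4 pairs in ES Hi-C, 81.9 of ES H3K27ac pairs in ES Hi-C, 93.9 of MEF Hi-C pairs in ES Hi-C and 95.2 of ES KLF4 pairs in MEF Hi-C.

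Of the values for single called pairs under an alternative, 154 stayed called, 78 lost the call with the same sign and 1 changed sign. Comparisons with no Esrrb pair in both lists (H3K27ac ES and MEF, KLF4 ES and day 3, KLF4 day 6 and day 3) gave no value, and separate libraries changed nothing in Hi-C, where none were joined. Depth limits the weakest HiChIP pairs near the list threshold of about 3 CPM, where 1 CPM stood for 2.14 to 8.11 contacts on chromosome 12. Absence from a list was not read as a level.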
